A study of Mus musculus with 4 samples.

Results

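The core circadian clock genes followed here are Arntl (also written Bmal1), Clock, Npas2, Per1, Per2, Per3, Nr1d1, Nr1d2, Dbp and Ciart. They were found through the transcript accession printed for each array probe, which gave 10 of the 20886 genes named on the array and 11 of its 39429 probes, with 2 probes for Dbp and 1 for each other gene. Liver RNA of male mice was labelled with Cy3 and hybridised to Agilent mouse oligonucleotide arrays read in 1 colour. The 4 groups were catalase knockout mice on a high-fat diet, catalase knockout mice on a normal diet, wild-type mice on a high-fat diet and wild-type mice on a normal diet. Fat supplied 60.3% of the calories in the high-fat diet and 18% in the normal diet, and each was eaten for 11 weeks between 29 and 40 weeks of age. Each group had 1 array, so no value below has a replicate and no p-value is given for a difference between 2 arrays. All mice lived under a cycle of 12 h light and 12 h dark. The labels give neither the hour at which each liver was taken, nor the knockout allele, nor whether a sample was 1 animal or a pool. A difference in collection time between livers and an effect of diet or genotype therefore cannot be told apart in any result on these genes.

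In the mouse clock, the proteins of Arntl and Clock pair and switch on genes that carry a sequence called the E-box in their control regions. Npas2 encodes a relative of Clock that can take its place. Among the genes switched on are Per1, Per2 and Per3, whose PER proteins join the cryptochromes and shut the pair down, and Ciart, whose product CHRONO also represses it. The pair also drives Nr1d1 and Nr1d2, which encode the REV-ERB nuclear receptors that repress Arntl, and Dbp, a transcription factor that acts on D-box sequences in liver metabolic genes. In the liver of mice kept in light and dark, Arntl RNA is high near the end of the night, Nr1d1 peaks in the day ahead of Dbp, and Per1 and Per2 follow around dusk.

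The arrays had 23760 to 25184 probes well above background by the scanner's flag, and no saturated spot. Signals below are the processed signal scaled so that each array's 75th percentile is equal, in intensity units, and the error after ± is the scanner's own error model, which covers spot measurement and not the spread between animals. Before scaling, that percentile was 1152 on the knockout high-fat array and 1002 to 1019 on the other 3. Cat, the catalase gene, differed by -3.81 ± 0.20 on the log2 scale between knockout and wild type for livers from the high-fat diet and by -3.76 ± 0.20 on normal diet, on its brighter probe, and was thus low on both arrays labelled knockout. All 6 hepatocyte genes on the array were well above background on all 4 arrays. The knockout high-fat array stood apart in macrophage genes, whose 7 measured markers summed to 55547 units there, against 22639 in knockout normal-diet liver, 30359 in wild-type high-fat liver and 26430 in wild-type normal-diet liver. Stellate cell and neutrophil markers also summed highest there, at 6544 and 4751 units against at most 3494 and 1857 units on the other 3 arrays. The bile duct sum of 1775 units there, against at most 1067, was mostly Spp1, while Krt19 and Sox9 were highest in wild-type normal-diet liver. Endothelial markers summed to 33768 to 36466 and lymphocyte markers to 3231 to 4140 units, with Cd8a and Epcam above background on no array. In bulk liver, fewer cells of a type and less RNA per cell cannot be told apart.

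The promoters of Ciart and Nr1d1, the members with the widest ranges, are shown with those of Arntl and Per3, which hold the other 2 kinds of clock motif searched. They come from RefSeq on build GRCm38.p6 and run 5′ to 3′ from 250 bases before a transcription start to 50 bases after it, with motif matches in capitals. RefSeq promoters were found for 9 of the 10 genes, 13 promoters in all, and Per2 had none in the table.
Ciart, chr3:95882179-95882478, - strand: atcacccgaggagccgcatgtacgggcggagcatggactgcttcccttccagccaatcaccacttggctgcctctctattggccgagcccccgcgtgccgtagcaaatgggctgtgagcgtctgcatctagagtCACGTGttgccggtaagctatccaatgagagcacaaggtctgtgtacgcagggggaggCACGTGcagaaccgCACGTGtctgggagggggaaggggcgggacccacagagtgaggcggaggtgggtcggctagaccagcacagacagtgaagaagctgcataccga
Nr1d1, chr11:98775328-98775627, - strand: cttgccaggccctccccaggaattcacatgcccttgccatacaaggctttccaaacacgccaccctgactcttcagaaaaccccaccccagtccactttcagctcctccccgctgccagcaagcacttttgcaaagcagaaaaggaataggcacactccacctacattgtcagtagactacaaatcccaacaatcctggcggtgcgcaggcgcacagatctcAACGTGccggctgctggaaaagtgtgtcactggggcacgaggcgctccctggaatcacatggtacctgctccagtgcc
Per3, chr4:151044616-151044915, - strand: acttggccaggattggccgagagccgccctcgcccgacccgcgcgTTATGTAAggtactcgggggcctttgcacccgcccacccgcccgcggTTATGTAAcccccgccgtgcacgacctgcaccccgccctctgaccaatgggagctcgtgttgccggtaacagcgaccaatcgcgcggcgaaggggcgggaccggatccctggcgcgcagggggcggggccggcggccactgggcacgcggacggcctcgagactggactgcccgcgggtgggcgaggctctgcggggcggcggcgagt
Arntl, chr7:113207261-113207560, + strand: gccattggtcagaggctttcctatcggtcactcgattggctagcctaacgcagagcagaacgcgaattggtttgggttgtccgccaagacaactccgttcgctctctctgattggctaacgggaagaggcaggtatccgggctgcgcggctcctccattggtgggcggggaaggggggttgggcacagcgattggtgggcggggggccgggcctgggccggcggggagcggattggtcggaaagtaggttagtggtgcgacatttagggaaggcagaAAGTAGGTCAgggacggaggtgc
The capitals in Ciart are 3 copies of the E-box, CACGTG, which reads the same on both strands. One or more copies stood in 7.15% of 32851 promoters of this length, and 3 or more in 0.0883%. The capitals in Nr1d1 are the E-prime-box, searched as CACGTT on either strand and present in 4.68% of promoters. Those in Per3 are 2 D-boxes, searched as TTANNTAA and present in 6.0% of promoters. Those in Arntl, in the promoter of 1 of its 2 starts, are a ROR element, the kind of site that REV-ERB receptors bind, searched on either strand as ANNT, then any base, then GGTCA, and present in 2.46%. The 4 motifs do not overlap in these promoters. Per1 had 1 E-box in 1 of 2 promoters, and none of the 4 motifs was matched in the windows of Clock, Npas2, Nr1d2 or Dbp. A match describes the letters in this window and does not show that a factor was bound.

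**Figure D1:**
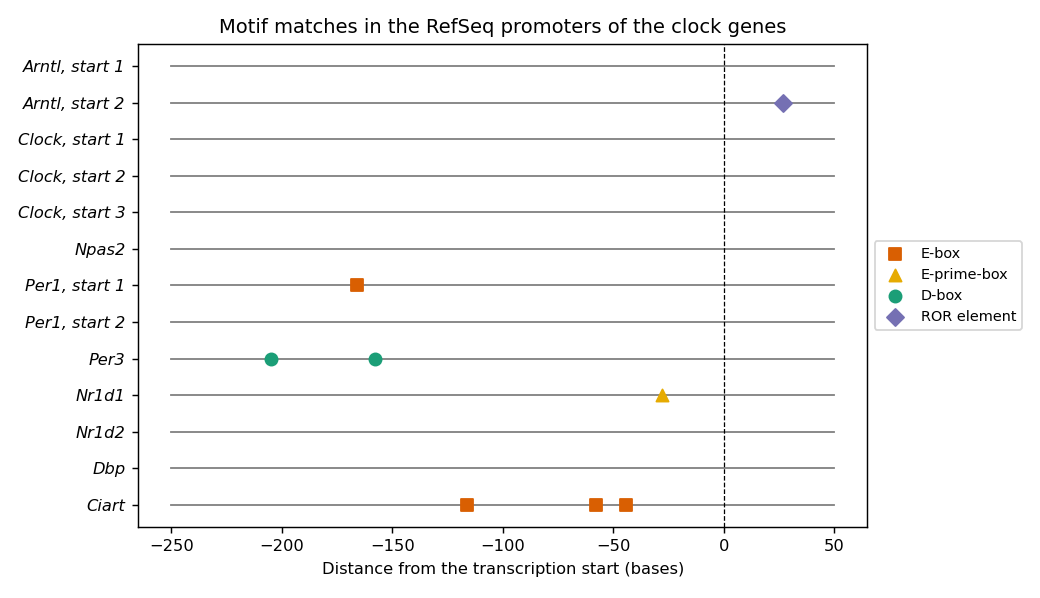
Motif matches in the 13 RefSeq promoters of 9 clock genes, by distance from the transcription start in bases. Each grey line is 1 promoter and each mark is the first base of a match, with 3 E-boxes in Ciart, 2 D-boxes in Per3 and 1 match each in Nr1d1, Per1 and Arntl.

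Nr1d1 and Ciart were the members that differed 2-fold or more between arrays. Nr1d1 was lower on the high-fat diet in both genotypes, by 2.60-fold in knockout and 2.21-fold in wild-type liver. Ciart was 3.05-fold higher on the high-fat diet in wild-type liver, whereas in knockout liver its difference was -0.87 ± 0.20 on the log2 scale. Ciart was also 2.59-fold higher in knockout than in wild-type liver on normal diet, and 2.16-fold lower when both genotypes ate the high-fat diet, a call lost with normexp background correction (-0.89). The other measured members stayed under 2-fold, and Npas2 was not measured above background. Of the 9 members above background on every array, 4 had their lowest signal in wild-type normal-diet liver, namely Per2, Per3, Dbp and Ciart. On the same array 3 had their highest signal, namely Arntl, Clock and Nr1d1. The share of all genes with an extreme on that array was not computed, so these counts do not set the members apart.

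**Figure D2:**
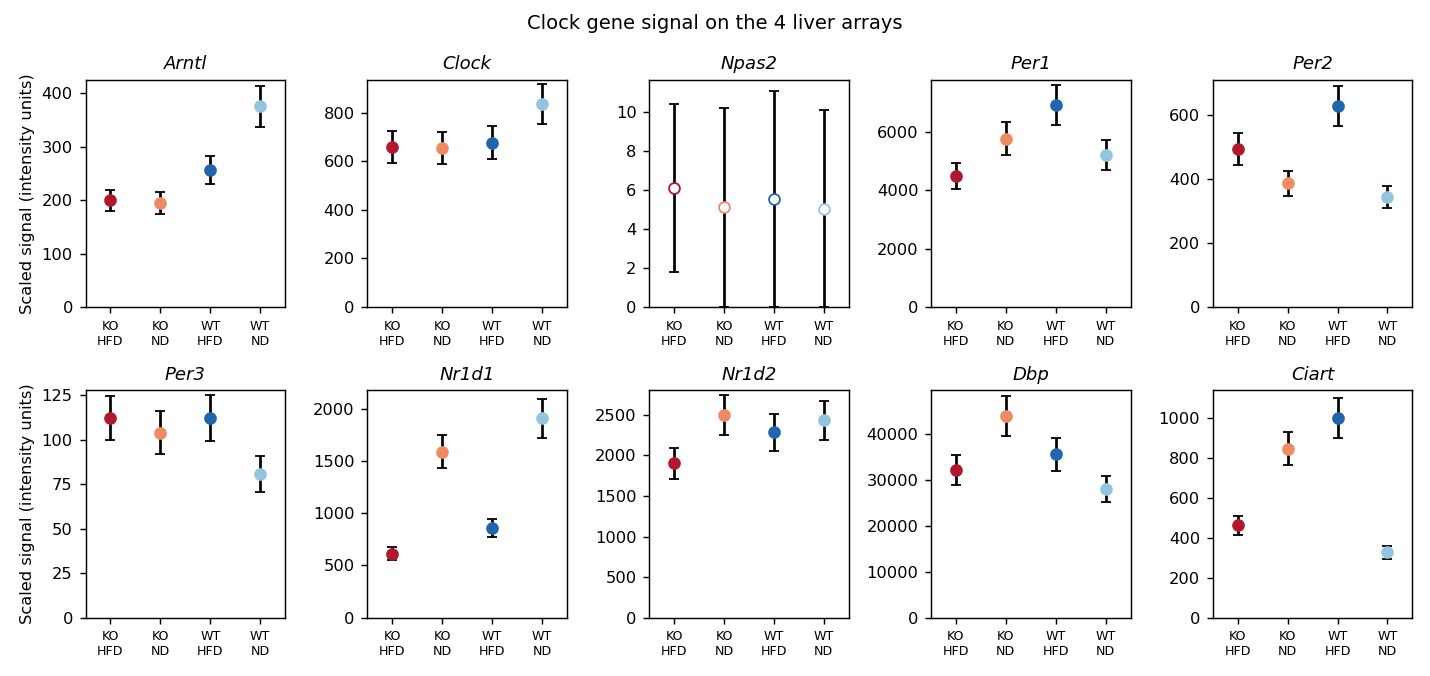
Scaled signal of each clock gene, in intensity units on an axis from 0, on the knockout high-fat (KO HFD), knockout normal-diet (KO ND), wild-type high-fat (WT HFD) and wild-type normal-diet (WT ND) arrays. Points are single arrays, bars are the scanner error, and open points are not well above background. Nr1d1 is at 611 and 862 units on the high-fat arrays, below 1587 and 1906 on the normal-diet arrays.

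Among the activators, Arntl had 199 units in knockout liver on high-fat diet and 195 on normal diet, and 256 units in wild-type liver on high-fat diet and 375 on normal diet. The wild-type normal-diet array was thus the high one, and the knockout arrays lay within the scanner error of each other. On the log2 scale Arntl differed by -0.36 ± 0.21 between knockout and wild type on high-fat diet, and by -0.94 ± 0.21 on normal diet, just under the 2-fold line. Its diet difference was 0.03 ± 0.21 in the knockout and -0.55 ± 0.21 in wild type, and the sign in the knockout turned under median scaling (-0.07) and quantile normalization (-0.05).
Clock, the partner of Arntl, had 658 and 656 units in knockout liver on high-fat and normal diet, and 677 and 836 units in wild-type liver on high-fat and normal diet. Its order over the arrays was that of Arntl, with a smaller range of 1.28-fold against 1.92-fold. The next lower array differed from the wild-type normal-diet one by 0.30 ± 0.20, and the other 3 could not be ordered within the scanner error. Npas2 had 5.04 to 6.10 units, with a scanner error of 70.3% to 100% of the signal. It was not well above background on any array, and with 1 probe it cannot be said whether the transcript was low or the probe weak.

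Of the period genes, Per2 had 493 units in knockout liver on high-fat diet and 386 on normal diet, and 627 units in wild-type liver on high-fat diet and 343 on normal diet. Both high-fat arrays were above both normal-diet arrays. The diet difference of Per2 was 0.35 ± 0.21 in the knockout and 0.87 ± 0.21 in wild type, and neither reached 2-fold. Per1, which glucocorticoids can also induce, had 4492 and 5782 units in knockout liver on high-fat and normal diet, and 6927 and 5224 units in wild-type liver on high-fat and normal diet. It was lowest in knockout and highest in wild-type liver on the high-fat diet, a genotype difference of -0.62 ± 0.20. Its diet difference was -0.36 ± 0.20 in the knockout and 0.41 ± 0.20 in wild type. Per3, the remaining period gene, had 112 and 104 units in knockout liver on high-fat and normal diet, and 112 and 80.5 units in wild-type liver on high-fat and normal diet. It was low on the wild-type normal-diet array, by 0.37 ± 0.25 from the next, and the other 3 arrays overlapped within the error. With normexp that difference was 0.10, and the diet difference in wild type was 0.13, against 0.48 without it.

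Of the REV-ERB genes, Nr1d1 had 611 units in knockout liver on high-fat diet and 1587 on normal diet, and 862 units in wild-type liver on high-fat diet and 1906 on normal diet. Both high-fat arrays lay below both normal-diet arrays, and the gap between the 2 diets was 0.88 on the log2 scale at its narrowest. The diet difference was -1.38 ± 0.20 in the knockout and -1.14 ± 0.20 in wild type, and the knockout differed from wild type by -0.50 ± 0.20 on high-fat diet and by -0.26 ± 0.20 on normal diet. Nr1d2, its close relative, had 1900 and 2497 units in knockout liver on high-fat and normal diet, and 2281 and 2428 units in wild-type liver on high-fat and normal diet. Its range was 1.31-fold, against 3.12-fold for Nr1d1, and its lowest value was also in knockout high-fat liver. The diet difference of Nr1d2 was -0.39 ± 0.20 in the knockout and -0.09 ± 0.20 in wild type, the value in wild type being 0.00 under median scaling.

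The output gene Dbp was read by 2 probes. On the brighter one it had 32129 units in knockout liver on high-fat diet and 43828 on normal diet, and 35522 units in wild-type liver on high-fat diet and 27974 on normal diet. Knockout normal-diet liver was the highest and wild-type normal-diet liver the lowest, a difference of 0.65 ± 0.20, and the other probe gave 0.59 ± 0.20. The diet difference was -0.45 ± 0.20 in the knockout and 0.34 ± 0.20 in wild type, or -0.58 and 0.21 on the other probe. Under quantile normalization the value in the knockout was -0.20. Ciart had 462 units in knockout liver on high-fat diet and 847 on normal diet, and 998 units in wild-type liver on high-fat diet and 328 on normal diet. Its order over the arrays was wild-type high-fat, knockout normal-diet, knockout high-fat and wild-type normal-diet, from high to low. The first 2 of these differed by 0.24 ± 0.21, close to the scanner error, and the third lay 0.87 below the second and 0.50 above the last.

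The question put to the arrays by the design was how diet, catalase loss and both together altered liver expression. Changed here means a difference of 2-fold or more, in a gene that both arrays measured above background or that 1 did with a bound past 2-fold. For the high-fat against the normal diet in the knockout, 1 of 9 measured members changed, Nr1d1, with a log2 difference of -1.38 ± 0.20, beside 5.86% of 14905 genes. These were 4.22% higher and 1.64% lower, or 629 and 245 genes, against 510 higher and 323 lower under median scaling. The members' median was -0.36, against -0.07 for all genes, and 0.461% of 13879 genes measured on both arrays were at least as far down as Nr1d1.

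In wild type, 2 of 9 changed with diet, Ciart up by 1.61 ± 0.21 and Nr1d1 down with a log2 difference of -1.14 ± 0.20, beside 4.09% of 14636 genes (1.78% higher and 2.31% lower). The members' median difference was 0.34, and that of all genes measured was -0.02. Of 13735 genes measured on both arrays, 0.386% were at least as far up as Ciart and 0.925% at least as far down as Nr1d1. Knockout against wild type on normal diet gave 1 of 9, Ciart, up by 1.37 ± 0.21, beside 3.9% of 14702 genes. These were 1.4% higher and 2.5% lower, or 206 and 368 genes, against 264 higher and 285 lower under median scaling. The wild-type normal-diet array serves here and in the wild-type diet comparison, so its values enter both. Knockout against wild type on high-fat diet also gave 1 of 9, again Ciart, with a log2 difference of -1.11 ± 0.20 (0 of 9 with normexp), beside 4.1% of 14844 genes (2.51% higher and 1.59% lower). A single gene of 9 is too few to set the members apart from those shares.

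At 1.5-fold, 2 of 9 members passed with diet in the knockout beside 15.2% of genes, with Ciart added, and 3 of 9 in wild type beside 11%, with Per2 added. Between genotypes 3 of 9 passed on normal diet beside 10.5%, with Arntl and Dbp added, and 2 of 9 on high-fat diet beside 11.7%, with Per1 added. At 3-fold Ciart alone was left, with diet in wild type, beside 1.7% of genes. No member passed 3-fold with diet in the knockout (1.93% of genes), between genotypes on normal diet (1.6%) or on high-fat diet (1.35%).

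**Figure D3:**
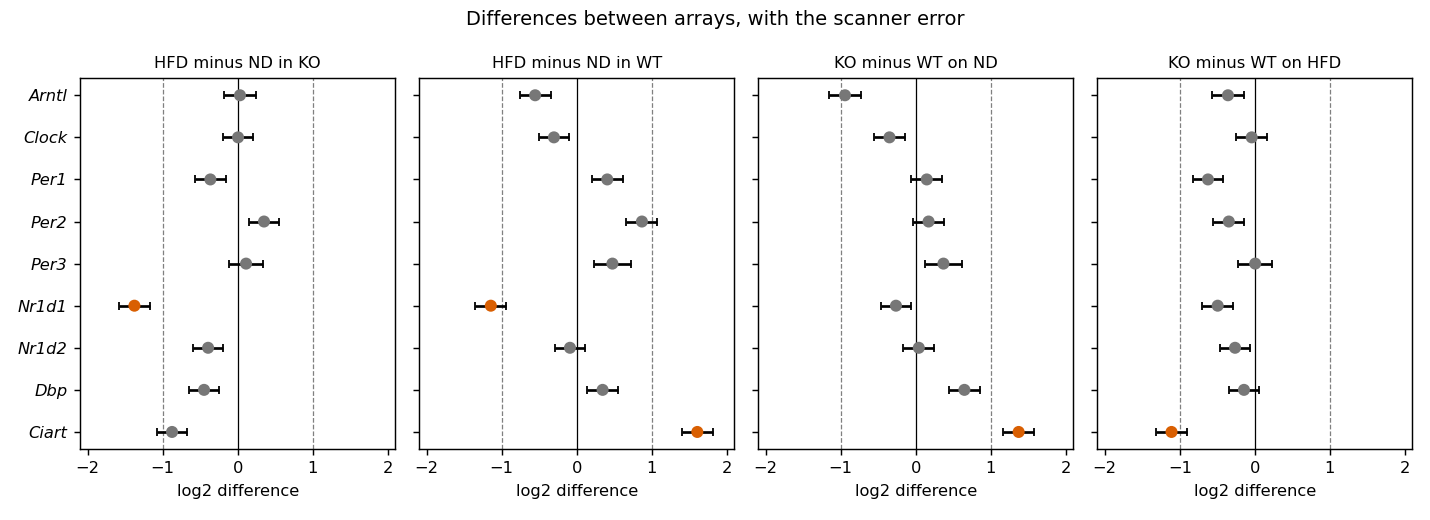
Log2 difference of each measured clock gene in the 4 comparisons, each named as first group minus second, with the scanner error as bars. Dashed lines mark 2-fold, and the orange points past it are Ciart in 3 comparisons and Nr1d1 in 2.

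The diet differences in the 2 genotypes share no array, and their difference was taken for each gene measured on all 4. Ciart stood out, with a diet difference of -0.87 ± 0.20 in the knockout and 1.61 ± 0.21 in wild type, which is -2.48 ± 0.29 between them. Of 13551 genes, 0.0959% were at least as far in that direction, while 5% differed 2-fold either way, 3.73% higher and 1.28% lower. That was 505 higher and 173 lower, against 308 and 297 under median scaling. At 1.5-fold 3 of 9 members passed, Ciart, Per1 and Dbp, beside 14.6% of genes, and at 3-fold Ciart, beside 1.18%. Dbp gave -0.79 ± 0.29, Per1 -0.77 ± 0.29, Per2 -0.52 ± 0.29 and Per3 -0.36 ± 0.34, while Arntl gave 0.58 ± 0.30 and Clock 0.31 ± 0.29. Nr1d2 gave -0.30 ± 0.29. Of the 9 members 7 thus had values below 0, and the 2 above 0 were the measured activators. The values of Clock, Per3 and Nr1d2 were close to their errors, and that of Per3 was -0.08 with normexp. Median scaling moved the median of all genes by -0.20 here, and the share of all genes below 0 was not computed. For Nr1d1 the value was -0.23 ± 0.29, within its error. None of the members other than Ciart reached 2-fold.

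**Figure D4:**
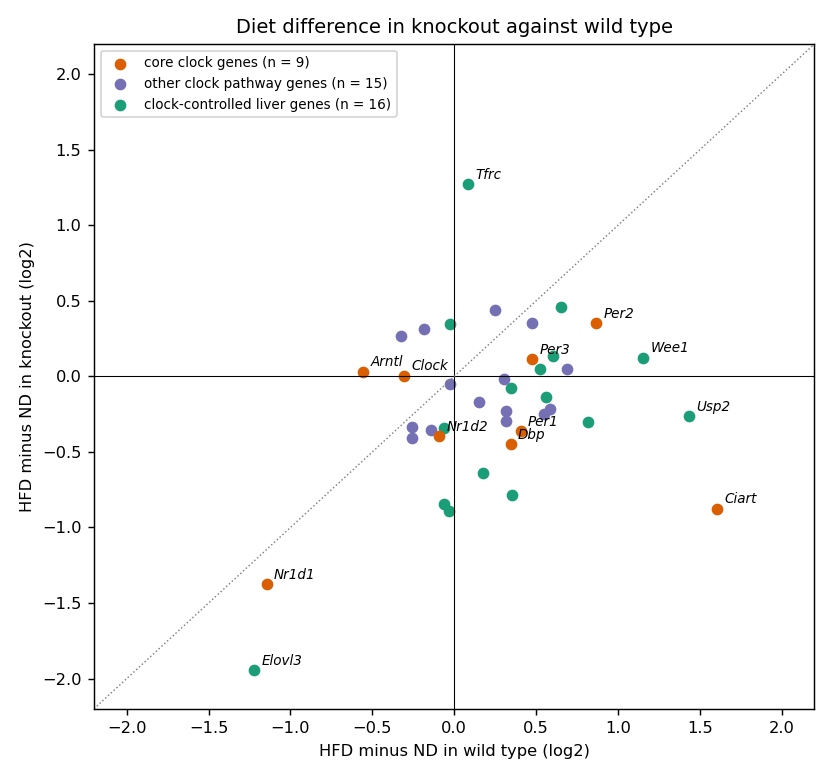
Log2 diet difference (high-fat minus normal) in knockout liver against that in wild-type liver for 9 core clock genes, 15 other clock pathway genes and 16 clock-controlled liver genes. The dotted line marks equal differences, with Nr1d1 and Elovl3 low on both axes and Ciart, Usp2 and Wee1 to the right of it.

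An additive model of diet and genotype over the 4 arrays was the only fit with a residual degree of freedom, and it takes the interaction of the 2 factors as error. With limma and Benjamini-Hochberg adjustment, 0 of 14346 genes, 0% of them, passed an adjusted p of 0.05 for diet or for genotype. At an unadjusted p under 0.05 there were 1425 genes (9.93%) for diet and 1041 (7.26%) for genotype. Nr1d1 had a diet effect of -1.26 on the log2 scale with a limma adjusted p of 0.41, and was lower on high-fat diet in both genotypes. Per2 followed with 0.61 and a limma adjusted p of 0.50, and for genotype Arntl had -0.65 with a limma adjusted p of 0.68. These members therefore failed the correction, as did every gene tested, Cat among them. A fit that does not call Cat for genotype cannot tell whether these members changed.

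The wider clock machinery was read from 17 other pathway genes, of which 15 were above background on all 4 arrays. They include the cryptochromes, which repress with the PER proteins, the receptor gene Rora, whose product opposes REV-ERB, the D-box factors Tef and Hlf, their repressor Nfil3, and kinases and ubiquitin ligases that set PER and cryptochrome stability. In the 4 comparisons of 2 arrays, 1 of them changed once. That was 1 of 16 tested genes, lower in knockout than in wild-type liver on normal diet, beside 2.5% of all genes. In the other comparisons 0 of 16 changed, beside 5.86% for diet in the knockout, 4.09% for diet in wild type and 4.1% between genotypes on high-fat diet. A single gene of 16 is too few to set the list apart from those shares. Nfil3 had 3845 and 3201 units in knockout liver on high-fat and normal diet, and 5325 and 6674 units in wild-type liver on high-fat and normal diet. It fell by 1.06 on the log2 scale in knockout against wild-type liver on normal diet, with an error of 0.20, and by less than 2-fold under median scaling (-0.92). Like Arntl, Nfil3 was highest in wild-type normal-diet and lowest in knockout normal-diet liver. Hlf, a close relative of Dbp, had 3184 and 3777 units in knockout liver on high-fat and normal diet, and 3394 and 2325 units in wild-type liver on high-fat and normal diet. Its lowest array was that of Dbp, and its genotype difference on normal diet was 0.70 ± 0.20. Bhlhe41, an E-box repressor, was near background, with 25.1 to 45.8 units and above background on 3 arrays.

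Of the 15 pathway genes, 8 were lowest in wild-type normal-diet liver, among them Cry1, Cry2, Tef and Hlf. On that array 6 were highest, among them Rora and Nfil3. The share of all genes was not computed for these counts either. Over the 16 list genes measured on both knockout arrays and the 15 on both wild-type arrays, the median diet difference was -0.19 in the knockout, against -0.07 for all genes, and 0.25 in wild type, against -0.02 for all genes. Its members did not move as one, with diet differences in wild type between -0.33 and 0.69. Cry2 and Tef were named after their values were seen. The genotype difference on normal diet was 0.51 ± 0.20 for Cry2 and 0.40 ± 0.20 for Tef. Over the 16 list genes measured on both normal-diet arrays its median was 0.10, against -0.01 for all genes. Of these values 10 were above 0 and 6 below.

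**Figure D5:**
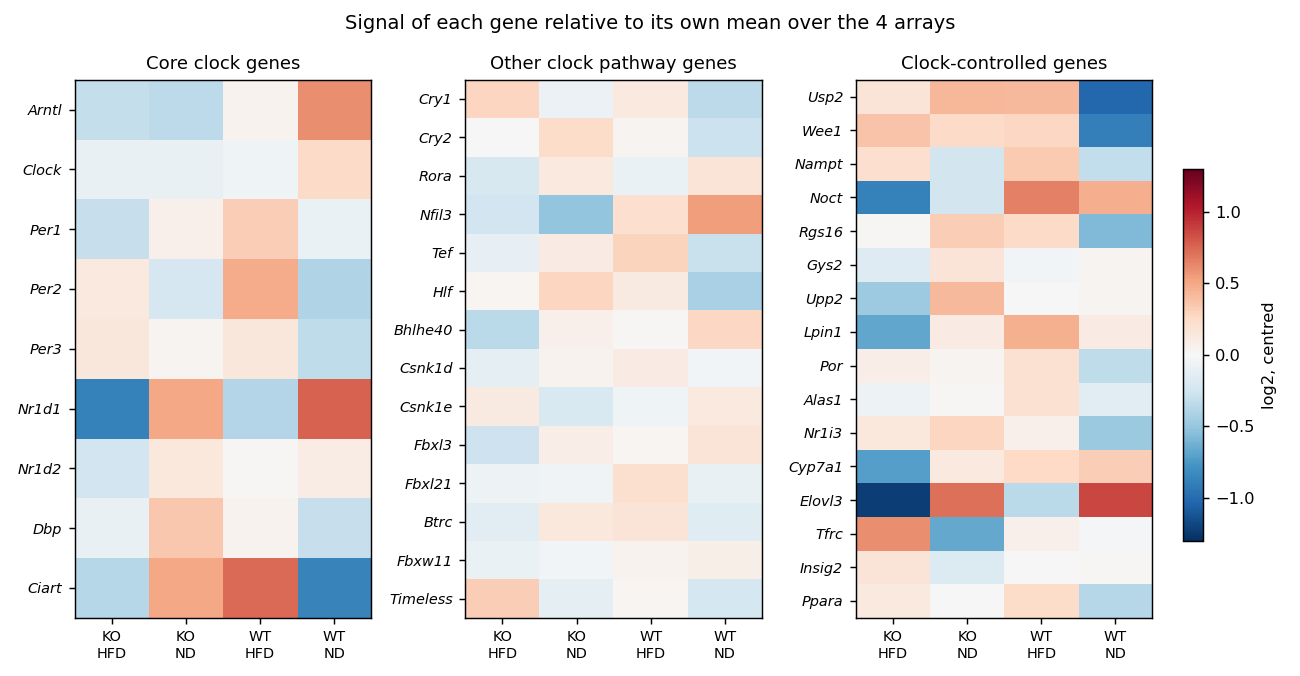
Log2 signal of each gene minus its own mean over the 4 arrays, for genes above background on all 4, with 14 of the 15 other pathway genes shown. Columns are knockout high-fat, knockout normal-diet, wild-type high-fat and wild-type normal-diet liver. Red is above and blue below the gene's mean, with Ciart, Usp2 and Wee1 blue and Arntl and Nfil3 red in wild-type normal-diet liver.

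Among 16 measured liver genes known to follow the clock, 1 rose and 1 fell with the high-fat diet in the knockout, beside 4.22% and 1.64% of all genes, and 2 rose and 1 fell with it in wild type, beside 1.78% and 2.31%. Between genotypes, 0 rose and 2 fell on high-fat diet, beside 2.51% and 1.59%, and 2 rose and 0 fell on normal diet, beside 1.4% and 2.5%. Usp2, a deubiquitinase with a strong liver rhythm, had 4425 and 5311 units in knockout liver on high-fat and normal diet, and 5272 and 1949 units in wild-type liver on high-fat and normal diet. Wee1, which encodes a kinase that holds back mitosis, had 1271 and 1166 units in knockout liver on high-fat and normal diet, and 1183 and 532 units in wild-type liver on high-fat and normal diet. Both were low on the wild-type normal-diet array alone, with the other 3 arrays close together. Usp2 rose by 1.44 ± 0.20 with diet in wild type and by 1.45 ± 0.20 with catalase loss on normal diet, and Wee1 by 1.15 ± 0.20 and 1.13 ± 0.20. Those comparisons share that array. Rgs16, a regulator of G-protein signalling, gave 0.82 ± 0.20 and 0.89 ± 0.20 in the same comparisons, under 2-fold, although the second was 1.03 under median scaling. Its diet difference was -0.30 ± 0.20 in the knockout, so that the 2 diet differences stood -1.12 ± 0.29 apart (-0.99 under quantile normalization).

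Elovl3, a fatty acid elongase gene with a daily rhythm in male mouse liver, had the diet pattern of Nr1d1. It had 2172 and 8362 units in knockout liver on high-fat and normal diet, and 3977 and 9269 units in wild-type liver on high-fat and normal diet. Both high-fat arrays were below both normal-diet arrays, and Elovl3 fell by 1.94 on the log2 scale in the knockout and by 1.22 in wild type. Noct, which encodes nocturnin, and Lpin1, a phosphatidate phosphatase gene, were low in knockout high-fat liver. Noct fell by 1.53 there against wild-type high-fat liver, and Lpin1 by 1.13, with errors of 0.20. Tfrc, the transferrin receptor gene, rose by 1.27 ± 0.07 with diet in the knockout, a call that its dimmest probe, below background on the knockout normal-diet array, did not give. Cyp7a1, the rate-limiting enzyme of bile acid synthesis, and Upp2, a uridine phosphorylase gene, stayed under 2-fold, with diet differences of -0.85 ± 0.20 and -0.89 ± 0.20 in the knockout. The genotype difference of Cyp7a1 on high-fat diet was -0.97 ± 0.20, and past 2-fold under median scaling (-1.03).
Of the 16 genes, 14 had a lower diet difference in the knockout than in wild type, with a median of -0.71 between the 2 differences, against -0.04 over all genes, and 4 of them were 2-fold lower and 1 was 2-fold higher, beside 1.28% and 3.73% of all genes. Those counts were 6 and 0 under median scaling, and 3 and 1 with quantile, cyclic loess or normexp. Median scaling moved the median of all genes by -0.20 in this comparison. The share of all genes below 0 was not computed, so the count of 14 does not set these genes apart.

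Liver clock genes also answer to glucocorticoids, body temperature and feeding, and genes of these signals moved between the same arrays. Of 6 glucocorticoid-responsive genes, all 6 had a lower signal in knockout than in wild-type liver on high-fat diet, with a median of -0.67 against -0.04 for all genes, and 2 fell, beside 1.59% of all genes. Tsc22d3 fell by 1.27 and Tat, a tyrosine aminotransferase gene, by 1.07, both with an error of 0.20, and Tat missed 2-fold under quantile normalization (-0.90), cyclic loess (-0.90) and normexp (-0.99). Fkbp5, a glucocorticoid receptor cochaperone gene, rose by 1.24 ± 0.20 with diet in wild type. It was the 1 gene of the 6 that rose past 2-fold there and 0 fell, beside 1.78% and 2.31% of all genes. The median of the 6 in that comparison was 0.21, against -0.02 for all genes, with 4 values above 0 and 2 below. Of 7 heat and cold genes, Hspa1a, an inducible chaperone gene, had 86.8 and 93.9 units in knockout liver on high-fat and normal diet, and 621 and 908 units in wild-type liver on high-fat and normal diet. Both knockout arrays were below both wild-type arrays, with genotype differences of -2.84 ± 0.22 on high-fat and -3.27 ± 0.23 on normal diet. The genotype difference of Hsph1, a chaperone partner gene, was -1.07 ± 0.20 on high-fat diet, under 2-fold in those settings (-0.96 to -0.99), and -0.98 ± 0.20 on normal diet, and that of Hsp90aa1 was -0.44 ± 0.20 and -0.81 ± 0.20. Over the 7 genes the median genotype difference was -0.44 on high-fat diet and -0.51 on normal diet, against -0.04 and -0.01 for all genes. On high-fat diet 2 of the 7 fell, beside 1.59% of all genes, and on normal diet 1, beside 2.5%. The cold genes Cirbp and Rbm3, named after their values were seen, had 0.27 ± 0.20 and 0.09 ± 0.20 on high-fat diet. On normal diet they had 0.33 ± 0.20 and -0.30 ± 0.20. Of 9 fasting and feeding genes, Igfbp1, which insulin represses, fell by 2.42 in knockout against wild-type liver on normal diet. On high-fat diet its genotype difference was -1.16 ± 0.20. Between genotypes on normal diet 1 of the 9 rose and 1 fell, beside 1.4% and 2.5% of all genes, with a median of -0.18 against -0.01. On high-fat diet 0 rose and 1 fell, beside 2.51% and 1.59%, with a median of -0.44 against -0.04. The diet difference of Igfbp1 in wild type was -1.0 ± 0.20, at the 2-fold line and under it in the other scalings (-0.86 to -0.93). Pdk4, a fasting-induced kinase gene, rose by 1.16 ± 0.21 with diet in the knockout, or 0.99 with normexp. Over the 9 genes the median in that comparison was -0.15, against -0.07 for all genes, with 4 values above 0 and 5 below. Pdk4 was the 1 gene that rose past 2-fold and 0 fell, beside 4.22% and 1.64% of all genes. The part of these signals, and of the macrophage genes in knockout high-fat liver, in the clock gene differences was not tested.

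Genes with a profile most like that of Arntl and of Dbp were sought by the root mean square difference of log2 profiles centred on each gene's mean over the 4 arrays, among 12956 genes above background on all of them. Nearest to Arntl were N6amt1, Lnx1, Adam32, Mfsd8 and Wfdc12, at 0.03 to 0.05. Nfil3 ranked 63rd at 0.13, and Clock ranked 665th at 0.24. Among the 5 nearest to Dbp were Tfcp2, Cdc23, Ankrd2 and Tspan1, at 0.03 to 0.04, all inside the scanner error. Among clock pathway genes Cry2 ranked 23rd at 0.08 and Hlf 87th at 0.10, while Nr1d1 ranked 12588th. After quantile normalization 4 of the 5 nearest to Arntl were kept and 0 of the 5 nearest to Dbp. With 4 arrays such ranks describe the profiles only.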

How the data were processed

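The scanner output that the authors deposited gives spot intensity from Agilent Feature Extraction, per the file headers, as a background-subtracted signal with its error and flags. The design text names GeneSpring GX for extraction, and no source used here gives the authors' scaling. Their value table, also deposited, holds linear intensity that is not centred. It lies within 1% of the scanner signal for 99.7% of probes on each array, with medians of 89.2, 72.4, 75.9 and 79.9 for the knockout high-fat, knockout normal-diet, wild-type high-fat and wild-type normal-diet arrays. All 4 arrays share 1 slide and 1 scan.

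Control spots were dropped, as were outlier spots unless all spots of a probe were outliers. Replicate spots were averaged after taking log2, and the 75th percentile of each array was then set equal. Transcript accessions, without version, named 27508 of 39429 probes through a RefSeq table of GRCm38.p6, from which no gene coordinates were taken. The brightest probe by mean stood for a gene. A dim array's bound was its lowest signal that cleared background, or the probe's own signal where higher. The additive model ran in limma 3.58.1 (R 4.3.3), with genes that at least 2 arrays measured above background. Quantile normalization, cyclic loess and normexp also ran in limma, and all else in Python 3.11.15. Methods were tested on simulated data. Having 1 array per group leaves no spread between replicates and limits the precision. The p-values of the additive model take the interaction of diet and genotype as error and measure no spread between animals. Alternatives covered scaling, background correction, probe choice, filters and thresholds.

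The members and lists were chosen with earlier results of these data known. Named genes were Cat, the 10 members, and changed genes of both clock lists plus the 2 of each with the widest range among the rest. Up to 3 genes of each signal list, Cirbp and Rbm3, and the 5 nearest profiles were also named. Cyp2a5, Hspa1b, Tf, Cd68 and Ly6g had no named probe. Results on 3 genes of the lists and profiles are not reported here.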

Additional observations from a re-analysis of the deposited data

Results flagged for a closer look

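Ciart had diet differences of opposite sign in the 2 genotypes, as did Per1 and Dbp with smaller values. For Ciart it was -0.87 in the knockout and 1.61 in wild type on the log2 scale, and their difference of -2.48 was 2-fold or more, with a scanner error of 0.29. Each genotype has 1 array per diet, so this difference was not tested.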

How the results depend on the processing

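Of 405 recomputed values of the 9 measured members, 399 moved by no more than the scanner error and 6 by more. Of these 6, 5 came with normexp background correction and 1 with quantile normalization. Many of the 399 could not move. The background filters return the same value for every member, and the probe choices do so for every member but Dbp. The deposited value table holds nearly the same signal. Only median scaling, quantile normalization, cyclic loess and normexp could thus move most members. No 2-fold difference changed sign. In the order diet in the knockout, diet in wild type, genotype on normal diet, genotype on high-fat diet and difference of diet effects, 1, 2, 1, 1 and 1 members changed. Normexp gave 0 for genotype on high-fat diet, where Ciart had -0.89, and the other scalings, filters and probe choices kept these counts. Normexp used median signals, a choice made after seeing the data, since no mean signal column was there, and normexp on mean signals was not run. At 1.5-fold the counts were 2, 3, 3, 2 and 3, and at 3-fold 0, 1, 0, 0 and 1. All genes changed numbered 874, 599, 574, 609 and 678. They numbered 2266, 1604, 1549, 1737 and 1975 at 1.5-fold, 287, 249, 235, 201 and 160 at 3-fold, 407, 273, 245, 264 and 324 with normexp, and 1795, 1551, 1611, 1396 and 2543 with no background filter. Using only probes above background on both arrays gave 341 for diet in wild type, 316 for genotype on normal diet and 398 on high-fat diet. Median scaling moved the median of all genes by -0.11 for diet in the knockout, 0.14 for genotype on normal diet and -0.20 for the difference of diet effects. Between genotypes on high-fat diet, quantile normalization turned Per3 to -0.05 and Dbp to 0.00. Clock with diet in the knockout was -0.10 under median scaling, and Nr1d2 between genotypes on normal diet was -0.03 with normexp. The additive limma model called 0 members in its 4 settings, and 1 gene for genotype with an intensity trend. No paired analysis was possible because each group has 1 array.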

Other observations

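Nr1d1 and Ciart were added as profiles after their values were seen. Nearest to Nr1d1 among 12956 genes were Ppp1r3g, Lhx3, Smad9, Msmo1 and Tm7sf2, at 0.08 to 0.10 on the root mean square log2 scale. Msmo1 and Tm7sf2 encode enzymes of cholesterol synthesis. Msmo1 had 16116 and 37168 units in knockout liver on high-fat and normal diet, and 22598 and 53178 units in wild-type liver on high-fat and normal diet. Tm7sf2 had 20836 and 60546 units in knockout liver on high-fat and normal diet, and 32973 and 61826 units in wild-type liver on high-fat and normal diet. Both were low on both high-fat arrays, as Nr1d1 was, which follows from their choice by likeness to it. After quantile normalization 3 of the 5 remained nearest, and Msmo1 and Tm7sf2 were the ones that did not.

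Nearest to Ciart were Taar7f, Kcnk5, Rgs4, Hsd17b6 and Serpina6, at 0.14 to 0.30. After quantile normalization 3 of the 5 remained, and Hsd17b6 and Serpina6 did not. Serpina6, the gene of corticosteroid-binding globulin, had 49071 and 59040 units in knockout liver on high-fat and normal diet, and 67637 and 33190 units in wild-type liver on high-fat and normal diet. Hsd17b6, a steroid dehydrogenase gene, had 2269 and 3160 units in knockout liver on high-fat and normal diet, and 2951 and 1428 units in wild-type liver on high-fat and normal diet. All 5 were lowest in wild-type normal-diet liver, as Ciart was, which follows largely from their choice by likeness to it.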
